A study of Mus musculus with 6 samples.

Results

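Polyamine metabolism was examined through 10 genes, *Odc1*, *Oaz1*, *Oaz2*, *Azin1*, *Amd1*, *Srm*, *Sms*, *Sat1*, *Smox* and *Paox*, in mouse keratinocytes lacking the transcription factors *Sox4*, *Sox11* or both. The members were the probes, control spots excluded, whose RefSeq accession belonged to one of these genes. Accessions matched 9 of the 10 genes, through 18 of 55681 probes, out of 21368 genes named on the array. *Amd1* was not analysed here, because no accession matched it. The set was chosen by the measured values of *Odc1*, selected on its lower log2 ratio in the double knockout, and by its place near *Sox11* on chromosome 12, so values of the double knockout are given for every member as a description, with no p-value. The rule behind that choice did not use the single knockouts, and their comparisons were tested. The members were, however, listed with earlier results of these data known, which limits those tests.

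Primary keratinocytes, which build the epidermis, had been isolated from newborn skin and belonged to the strain labelled 129SvEx:C57BL/6. They were grown on J2 fibroblast feeders for 3 passages and then without feeders for at least 2. Knockout RNA and wild-type control RNA were hybridised together on 2-colour Agilent arrays, with 2 biological replicates for each of 3 genotypes, which makes 6 arrays and 12 channels. Knockout RNA carried Cy5 in replicate 1 and Cy3 in replicate 2 of every genotype. Sox4cKO cells lacked *Sox4*, Sox11cKO cells lacked *Sox11* and dcKO cells lacked both. Per the study's methods, *Krt14*-Cre, which acts in basal epidermal cells, removed the floxed alleles, and mice with *Sox4* fl/fl, *Sox11* fl/fl and *Sox12*-/- were crossed to *Krt14*-Cre mice (FVB/N). The sources used here do not give the Cre or *Sox12* genotype of the wild-type controls, the number of pups per culture, or whether the wild-type RNA of the arrays came from separate cultures. The p-values therefore measure the spread between these arrays, which may be partly technical.

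Polyamines are small, positively charged molecules that bind nucleic acids and are needed for cell growth, and proliferating epidermis is a classic setting for them. *Odc1* (ornithine decarboxylase) makes putrescine from ornithine, *Srm* (spermidine synthase) and *Sms* (spermine synthase) extend it with aminopropyl groups, and *Amd1* supplies those groups as decarboxylated S-adenosylmethionine. The antizymes *Oaz1* and *Oaz2* bind ornithine decarboxylase and send it to the proteasome, and the antizyme inhibitor *Azin1* holds antizyme away from it. *Sat1* (spermidine/spermine acetyltransferase), *Paox* (acetylpolyamine oxidase) and *Smox* (spermine oxidase) run the pathway backwards.

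Between 35.1% and 42.8% of probes were well above background in a knockout channel, with the lowest value on replicate 1 of dcKO, and between 37.3% and 45.0% in a wild-type channel. The targeted genes were lower where the labels say so. The log2 ratios of *Sox4*, knockout over wild type, were -2.49 and -2.54 in Sox4cKO and -2.23 and -2.81 in dcKO. Those of *Sox11* were -3.31 and -2.65 in Sox11cKO and -3.07 and -3.79 in dcKO. All 6 keratinocyte markers (*Krt5*, *Krt14*, *Trp63*, *Itga6*, *Itgb4* and *Cdh1*) were well above background in all 12 channels. Of 6 markers of feeder fibroblasts, 0 were so in all 12 channels and 4 were so in none (*Col1a1*, *Col3a1*, *Pdgfrb* and *Thy1*). *Pdgfra* was so in 1 channel and *Col1a2* in 11. In dcKO against the wild-type channels of the same arrays, the log2 of the summed intensity ranged from 18.3 to 18.4 against 17.8 to 18.5 for keratinocyte markers, from 7.68 to 7.93 against 7.62 to 7.69 for feeder markers, from 7.34 to 7.61 against 7.64 to 7.65 for 4 melanocyte markers, and from 10.1 to 10.2 against 9.84 to 9.86 for 4 immune markers. The part of these shifts in the results was not tested. The immune markers *Cd3e* and *Csf1r* were well above background in all 12 channels, *Ptprc* in 1 channel and *Cd79a* in none.

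The promoter of *Odc1* is shown because the question put to this gene is how it responds to loss of SOX factors. The stretch ends before the first annotated start of the gene and lies on the plus strand of chromosome 12, at chr12:17544623-17544807 (RefSeq, GRCm38.p6). Capitals mark GC boxes, searched as GGGCGG on both strands.

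Odc1: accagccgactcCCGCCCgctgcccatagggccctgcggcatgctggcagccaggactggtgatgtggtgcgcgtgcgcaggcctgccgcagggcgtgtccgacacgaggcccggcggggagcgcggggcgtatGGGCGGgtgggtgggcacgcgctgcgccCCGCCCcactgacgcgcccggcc

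The window searched ran from 250 bases before to 50 after the annotated start and held 4 GC boxes, 3 of them in the bases printed. GGGCGG was found in 35.7% of all 32851 promoter windows and in 7 of the 8 members with a window, *Odc1*, *Oaz2*, *Amd1*, *Sms*, *Sat1*, *Smox* and *Paox*. *Odc1*'s window held none of the other motifs searched on both strands. These were the E-box CACGTG, which MYC binds (7.15% of all windows), the SOX cores ACAAAG (18.7%) and ACAATG (12.6%), and the AP-1 motif TGACTCA (5.2%). Among the members, CACGTG and ACAATG were found in *Sms*, ACAAAG was found in *Oaz2*, and TGACTCA in 0 members. A match to these letters is a description of sequence, and the window covers only the bases next to the start. *Srm* and *Azin1* had no entry in the table of promoters.

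*Odc1* was higher in Sox4cKO cells and lower in Sox11cKO and dcKO cells than in the wild-type RNA on the same array. The brightest of its 3 probes (A_55_P1995173) gave log2 ratios of 0.88 and 1.24 in Sox4cKO, of -0.99 and -0.50 in Sox11cKO, and of -2.25 and -1.95 in dcKO. On this probe the arrays of the 3 genotypes did not overlap. The fitted log2 fold change was 1.06 ± 0.25 in Sox4cKO (SD, n = 2; 95% interval 0.73 to 1.40), which is 2.09-fold higher, and limma's adjusted p was 0.0556, just short of the threshold of 0.05. In Sox11cKO it was -0.74 ± 0.35 (SD, n = 2; 95% interval -1.08 to -0.41; limma adjusted p = 0.184). In dcKO it was -2.10 ± 0.21 (SD, n = 2), with wild type 4.29-fold higher. Here and below, an SD is that of the 2 log2 ratios, which still hold the dye effect. Intervals and p-values come from the fit, which removes that effect and shares its estimate of spread over all arrays. The difference between the single knockouts was -1.80 for Sox11cKO minus Sox4cKO (SE 0.20; 95% interval -2.28 to -1.33; limma adjusted p = 0.0711). Neither single knockout nor their difference passed the test across all probes, and these adjusted p-values moved with the processing, as given below. In these bulk samples, fewer cells that express a gene and less of its RNA per cell cannot be told apart.

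The fitted values of the other probes of *Odc1* had the same order of genotypes. Their fitted log2 fold changes were -0.81 and -0.68 in Sox11cKO and -1.78 and -1.41 in dcKO. Both were dimmer, with mean log2 intensities of 10.5 and 10.2 against 13.8 for the brightest. Their replicates spread more widely in the single knockouts. Probe A_52_P436238 gave log2 ratios of 0.38 and 1.83 in Sox4cKO and of -1.45 and -0.16 in Sox11cKO. Probe A_55_P1982818 gave 0.70 and 1.34 in Sox4cKO and -1.26 and -0.11 in Sox11cKO. In dcKO the first of these gave -1.81 and -1.74 and the second -1.74 and -1.09. On A_55_P1982818 the log2 ratios of Sox11cKO and dcKO thus overlapped, but these ratios still hold the dye effect. With the fitted dye effect removed, they were -0.85 and -0.52 in Sox11cKO and -1.33 and -1.49 in dcKO, without overlap. On A_52_P436238 the same step gave 0.85 and 1.36 in Sox4cKO, -0.98 and -0.63 in Sox11cKO, and -1.35 and -2.21 in dcKO.

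The wild-type channels themselves differed in *Odc1*. Its normalised log2 intensity in wild type was 13.67 and 13.46 on the Sox4cKO arrays, 15.03 and 12.37 on the Sox11cKO arrays, and 15.59 and 14.64 on the dcKO arrays. The knockout channels stood at 14.56 and 14.70 in Sox4cKO, 14.04 and 11.87 in Sox11cKO, and 13.35 and 12.69 in dcKO. Both dcKO levels thus lay inside the range of the wild-type levels, and the lowest of the 12 channels was the knockout channel of Sox11cKO replicate 2. The wild-type levels of *Odc1* spanned 3.23 log2 units, against 2.34 for *Sat1* and between 0.52 and 1.34 for the other 7 measured members. The differences by genotype therefore rest on the comparison within each array.

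**Figure D1:**
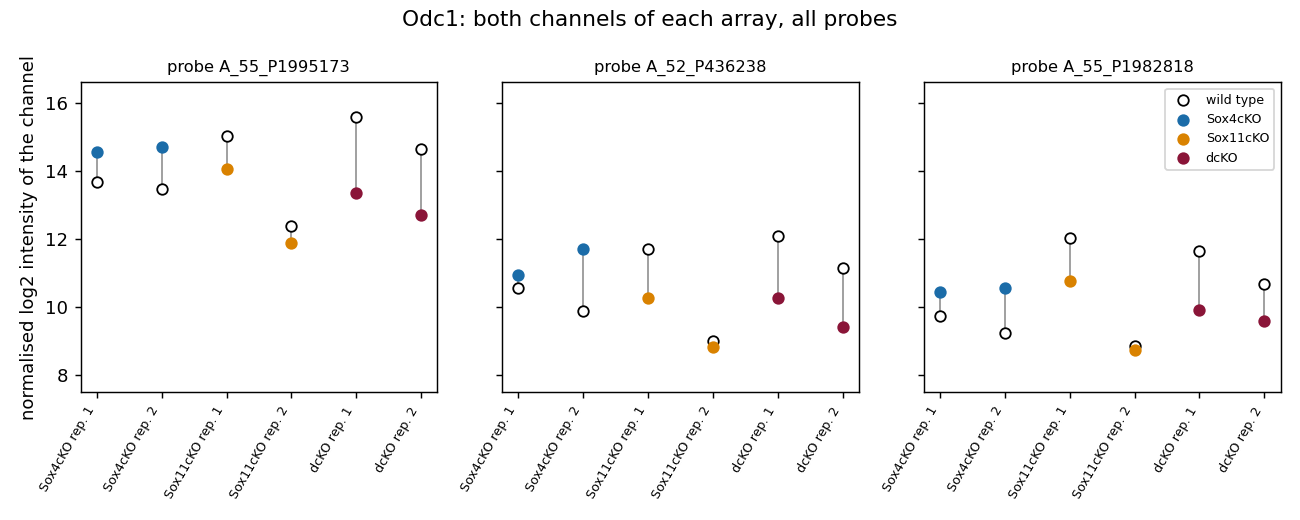
Normalised log2 intensity of *Odc1* (vertical axis) in the knockout channel (filled, coloured by genotype) and the wild-type channel (open) of each of the 6 arrays, 1 panel per probe, with a line joining the channels of an array. For probe A_55_P1995173 the knockout channel lies above wild type on both Sox4cKO arrays and below it on the other 4, while the wild-type points themselves run from 12.37 to 15.59.

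Across all 9 measured members, 0 were called in Sox4cKO (limma, adjusted p below 0.05 and absolute log2 fold change above 1.5), where 0.164% of the 21368 named genes were called. In Sox11cKO 0 members were called, against 0.178% of named genes. For the difference between Sox11cKO and Sox4cKO the count was 0, against 0.0187%. At an unadjusted p below 0.05 there were 3 members in Sox4cKO (*Odc1*, *Azin1* and *Sms*; 10.5% of named genes), 3 in Sox11cKO (*Odc1*, *Sat1* and *Smox*; 10.7%) and 2 for the difference (*Odc1* and *Sat1*; 9.51%). In dcKO, 1 member (*Odc1*) lay past both thresholds, beside 1.39% of named genes in either direction and 0.833% as lower. That count restates how *Odc1* was chosen, and nothing is read from it.

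Directions were also counted without a test. In Sox4cKO 4 members were higher on both arrays and 1 was lower on both, against 25.9% and 25.4% of named genes. In Sox11cKO 4 were higher on both and 2 lower on both, against 22.3% and 22.8%. In dcKO 3 were higher on both and 4 lower on both, against 28.4% and 31.9%. The median log2 fold change of the 8 members other than *Odc1* was 0.15 in Sox4cKO, 0.07 in Sox11cKO and -0.20 in dcKO, beside medians of 0.00, 0.00 and -0.01 over all named genes.

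**Figure D2:**
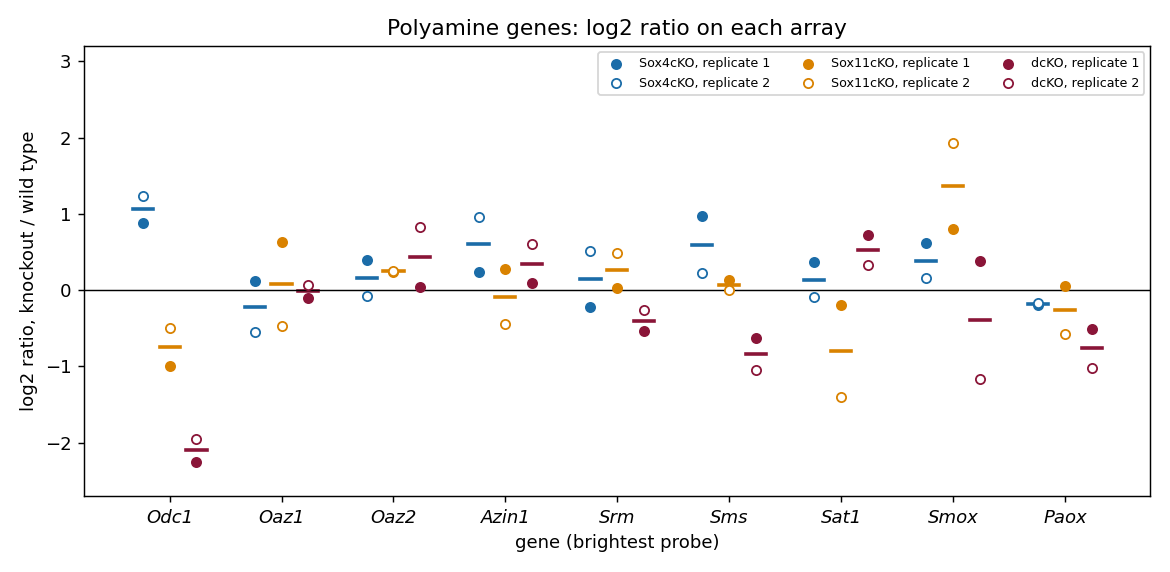
Log2 ratio of knockout over wild type (vertical axis) for the 9 measured genes of polyamine metabolism, with replicate 1 filled, replicate 2 open, their mean as a bar and genotypes by colour. *Odc1* is the gene with both dcKO points at -1.95 or below and both Sox4cKO points at 0.88 or above, and *Smox* holds the highest point, at 1.92 in Sox11cKO.

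Among the synthases, *Srm* did not pass the test in either single knockout. Its log2 ratios were -0.22 and 0.51 in Sox4cKO, 0.03 and 0.49 in Sox11cKO, and -0.53 and -0.26 in dcKO, so that dcKO alone had both arrays below 0. The second *Srm* probe gave a fitted log2 fold change of -0.49 in dcKO, beside -0.40 for the brightest, and the brightest gave -0.96 when arrays were centred on their median in place of loess. *Sms* had log2 ratios of 0.97 and 0.22 in Sox4cKO, 0.13 and 0.00 in Sox11cKO, and -0.63 and -1.04 in dcKO. Its fitted log2 fold change was 0.60 in Sox4cKO (95% interval 0.22 to 0.98; limma adjusted p = 0.439) and -0.84 ± 0.29 in dcKO (SD, n = 2). The difference between the single knockouts did not pass the test (-0.53; limma adjusted p = 0.793). Its 3 probes disagreed. Probe A_55_P2025911 had fitted values of 0.46, -0.02 and -0.56 in Sox4cKO, Sox11cKO and dcKO, and probe A_55_P2115995 had -0.04, 0.35 and -0.09. *Amd2*, a near-identical relative of *Amd1* named here because *Amd1* had no matched probe, had fitted log2 fold changes of -0.12, -0.14 and 0.04 in Sox4cKO, Sox11cKO and dcKO.

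The RNAs for the proteins that set the lifetime of ornithine decarboxylase did not pass the test in either single knockout. The proteins themselves were not measured. *Oaz1*, the brightest member (mean log2 intensity 14.8), had log2 ratios of 0.12 and -0.55 in Sox4cKO, 0.63 and -0.47 in Sox11cKO, and -0.10 and 0.07 in dcKO. These log2 ratios had opposite signs between replicates in every genotype. With the fitted dye effect removed, those of *Oaz1* were -0.15 and -0.28 in Sox4cKO, and the signs still differed in Sox11cKO and dcKO. *Oaz2* gave 0.39 and -0.08 in Sox4cKO, 0.24 and 0.25 in Sox11cKO, and 0.03 and 0.82 in dcKO. Its fitted value in dcKO was 0.43 and turned to -0.11 with median centring. The dimmer probe of *Oaz2* had fitted values of 0.45, 0.09 and 0.41 in Sox4cKO, Sox11cKO and dcKO, beside 0.15, 0.25 and 0.43 for the brightest. *Azin1* gave 0.24 and 0.96 in Sox4cKO, 0.28 and -0.45 in Sox11cKO, and 0.09 and 0.60 in dcKO. Its fitted log2 fold change in Sox4cKO was 0.60 (95% interval 0.02 to 1.18; limma adjusted p = 0.662). The dimmer probes of *Azin1* gave 0.31 and -0.14 in Sox4cKO and 0.04 and -0.07 in dcKO.

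The values of the 3 genes of polyamine breakdown did not share a direction. *Sat1* had log2 ratios of 0.37 and -0.09 in Sox4cKO, -0.19 and -1.40 in Sox11cKO, and 0.73 and 0.33 in dcKO. In Sox11cKO its fitted log2 fold change was -0.80 ± 0.86 (SD, n = 2; 95% interval -1.23 to -0.37; limma adjusted p = 0.278). That value leaned on a high wild-type channel. On Sox11cKO replicate 2 the wild-type level of *Sat1* was 12.61, against 10.26 to 11.21 on the other arrays. The knockout level there was 11.21, inside the 10.38 to 11.57 of the other knockout channels. The fitted log2 fold change of *Sat1* in dcKO was 0.53 ± 0.28 (SD, n = 2), the highest of the members, and it was -0.02 with median centring. The same centring turned *Azin1* in dcKO from 0.35 to -0.20, and under it the fitted value of every measured member in dcKO was below 0.

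*Smox* had the largest value of any member in Sox11cKO. Its log2 ratios were 0.62 and 0.16 in Sox4cKO, 0.81 and 1.92 in Sox11cKO, and 0.38 and -1.17 in dcKO, where the replicates had opposite signs. The fitted log2 fold change in Sox11cKO was 1.37 ± 0.79 (SD, n = 2; 95% interval 0.48 to 2.25; limma adjusted p = 0.401), and its second probe gave 1.24. The value leaned on Sox11cKO replicate 2: without replicate 1 of Sox11cKO, which leaves a lone array in that genotype, it was 2.43. *Paox* had log2 ratios of -0.19 and -0.17 in Sox4cKO, 0.06 and -0.57 in Sox11cKO, and -0.50 and -1.02 in dcKO. Its fitted value in dcKO was -0.76 ± 0.36 (SD, n = 2).

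*Odc1* stood apart from the rest of the pathway most clearly in dcKO, the genotype it was chosen in. Its log2 ratio minus the median of the other 8 members on the same array was 0.58 and 1.20 in Sox4cKO, -1.18 and -0.27 in Sox11cKO, and -2.22 and -1.86 in dcKO. Counted from the lowest of the 9 members, *Odc1* ranked 8 and 9 on the Sox4cKO arrays, 1 and 3 on the Sox11cKO arrays, and 1 and 1 on the dcKO arrays. The members beyond it were *Sms* on Sox4cKO replicate 1, at 0.97, and, on the low side, *Sat1* and *Paox* on Sox11cKO replicate 2, at -1.40 and -0.57. Among the 21368 named genes, 116 (0.543%) had a higher fitted log2 fold change than *Odc1* in Sox4cKO. In Sox11cKO 580 (2.71%) had a lower one, and in dcKO 105 (0.491%) did. For the difference between Sox11cKO and Sox4cKO 112 genes (0.524%) were lower.

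The wider pathway was read through 5 lists, with probes for all 37 of their genes. In the single knockouts 0 of the 37 were called by limma, beside 0.164% and 0.178% of named genes. At an unadjusted p below 0.05 there were 13 in Sox4cKO (10.5% of named genes) and 10 in Sox11cKO (10.7%). In dcKO 1 was called, *Mxd4*, as higher, beside 1.39% of named genes in either direction. The lists were chosen with earlier results of these data known. The counts in the single knockouts and in dcKO, and the p-values of single genes in these lists, are therefore given as a description. The median log2 fold change of the 37 genes was -0.10 in Sox4cKO, -0.10 in Sox11cKO and -0.02 in dcKO, with ranges of -1.37 to 0.71, -2.01 to 1.97 and -1.37 to 1.92.

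Of 7 transporters, listed with earlier results of these data known, *Slc18b1*, the vesicular polyamine transporter, had an adjusted p below the threshold in Sox4cKO. Its log2 ratios were -1.31 and -1.43 in Sox4cKO, 0.44 and 0.75 in Sox11cKO, and -1.21 and -1.40 in dcKO. Sox4cKO and dcKO thus overlapped, and Sox11cKO lay on the other side of 0. The fitted log2 fold change in Sox4cKO was -1.37 (limma adjusted p = 0.0370), short of the fold threshold of 1.5, and the difference of Sox11cKO minus Sox4cKO was 1.97 (limma adjusted p = 0.0711). In dcKO its knockout channel was well above background on 1 of 2 arrays. *Atp13a2*, a lysosomal polyamine exporter, had log2 ratios of -0.01 and -0.57 in Sox4cKO, and 0.11 and -0.87 in Sox11cKO, and it was lower on both arrays of dcKO, with a fitted value of -1.27.

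In the methionine list, which makes and salvages the aminopropyl donor, 8 genes had median log2 fold changes of 0.08, 0.02 and 0.00 in Sox4cKO, Sox11cKO and dcKO. Its largest dcKO values were -0.81 for *Mat2a*, the S-adenosylmethionine synthetase of most tissues, then 0.71 for *Adi1* and 0.57 for *Apip*, both of the methionine salvage pathway. Of the 9 paralogues and arginine enzymes, *Azin2*, a second antizyme inhibitor, had fitted values of -0.75, -0.20 and -0.66, and *Agmat*, which makes putrescine from agmatine, had -0.41, -0.10 and 0.61. The 4 genes of hypusine formation, in which spermidine is used to modify *Eif5a*, lay between -0.10 and 0.10 in dcKO.

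*Myc* is the best known activator of *Odc1*, and its partners were listed for that reason. *Myc* itself, singled out after its values were seen, had log2 ratios of -0.16 and 0.74 in Sox4cKO, -0.65 and -0.62 in Sox11cKO, and 0.01 and -0.16 in dcKO. Its fitted log2 fold change was -0.63 in Sox11cKO (limma adjusted p = 0.516) and -0.08 in dcKO. *Mxd4*, a MAX partner that opposes MYC, gave 0.18 and -1.05 in Sox4cKO, 0.19 and -0.78 in Sox11cKO, and 2.08 and 1.76 in dcKO. Both dcKO values lay above all 4 of the single knockouts. The wild-type levels of *Mxd4* spanned 3.90 log2 units, from 6.47 to 10.37, and were lowest on the dcKO arrays, at 6.47 and 7.56. Its knockout levels in dcKO, 8.55 and 9.32, lay inside that wild-type range. *Mycn* gave -1.42 and -1.32 in dcKO, and its Sox11cKO replicates were far apart, at -0.74 and 4.69.

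**Figure D3:**
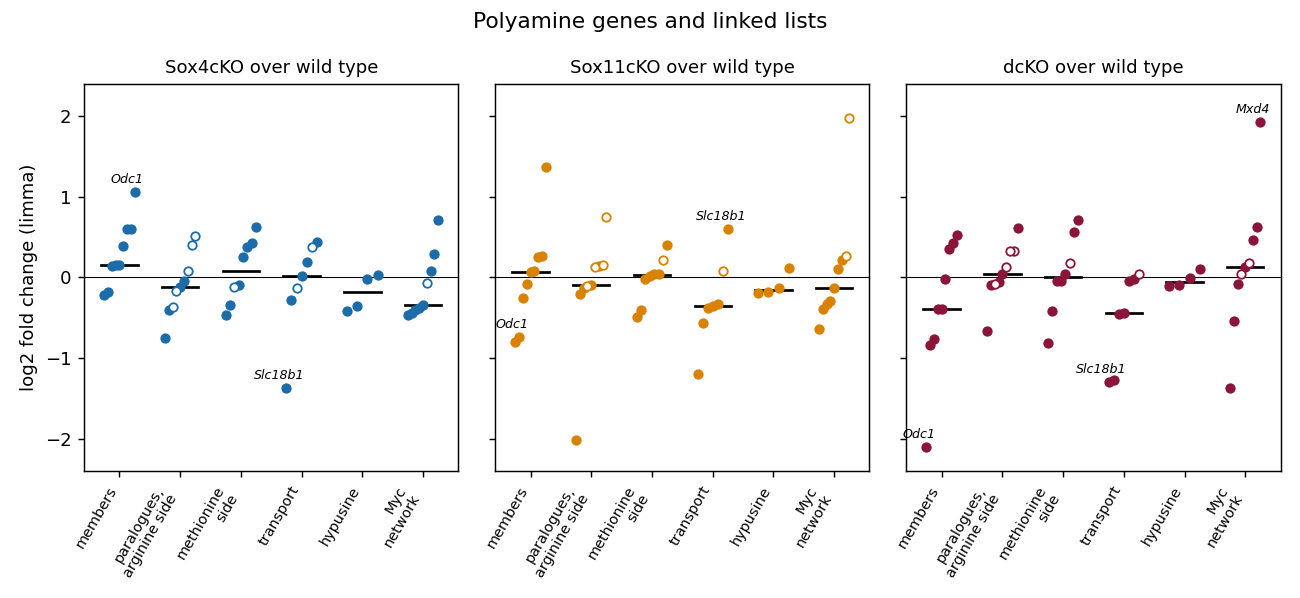
Fitted log2 fold change over wild type (vertical axis) of each gene in the members and in 5 linked lists, 1 panel per genotype, with a black bar at the median of a list. Filled points were well above background on both arrays in the knockout or the wild-type channel and open points were not. The largest departures in dcKO are *Odc1* at -2.10 and *Mxd4* at 1.92.

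*Odc1* and *Sox11* both lie on chromosome 12, with 53 protein-coding genes of the chromosome's 679 between them. Of these 53, 22 had a probe, and 5 more on the far side of each gene brought the neighbours to 32. Limma called 0 of the 32 in Sox4cKO (0.164% of named genes) and 0 in Sox11cKO (0.178%). At an unadjusted p below 0.05 there were 2 in Sox4cKO (10.5% of named genes) and 12 in Sox11cKO (10.7%). In Sox11cKO 15 neighbours were lower on both arrays (22.8% of named genes) and 7 higher on both (22.3%), with a median log2 fold change of -0.15, and of -0.34 over the 22 neighbours well above background. In dcKO the median was -0.02, and 2 neighbours were called, both as lower (0.833% of named genes). The dcKO count is given as a description, because *Odc1*, which set the region, was chosen on its dcKO value.

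Those called were *Mboat2*, a lysophospholipid acyltransferase, at -2.16, and *Asap2*, an Arf GTPase-activating protein, at -1.51. Their fitted values were -0.36 and -0.15 in Sox4cKO, and -1.63 and -0.92 in Sox11cKO. The third largest dcKO value was that of *Atp6v1c2*, a proton pump subunit. Its log2 ratios were 1.02 and 1.00 in Sox4cKO, -0.17 and 0.86 in Sox11cKO, and -1.57 and -0.58 in dcKO. The genes next to *Odc1* on either side, named for their place, were *Nol10* and *Hpcal1*. *Nol10* had fitted log2 fold changes of 0.25, -0.18 and -0.11 in Sox4cKO, Sox11cKO and dcKO, and *Hpcal1* had -0.40, -0.77 and 0.00. In dcKO both stood apart from *Odc1*, at -2.10. In Sox11cKO *Hpcal1* lay near *Odc1*, at -0.74, and *Nol10* did not. A shared cause was not tested.

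**Figure D4:**
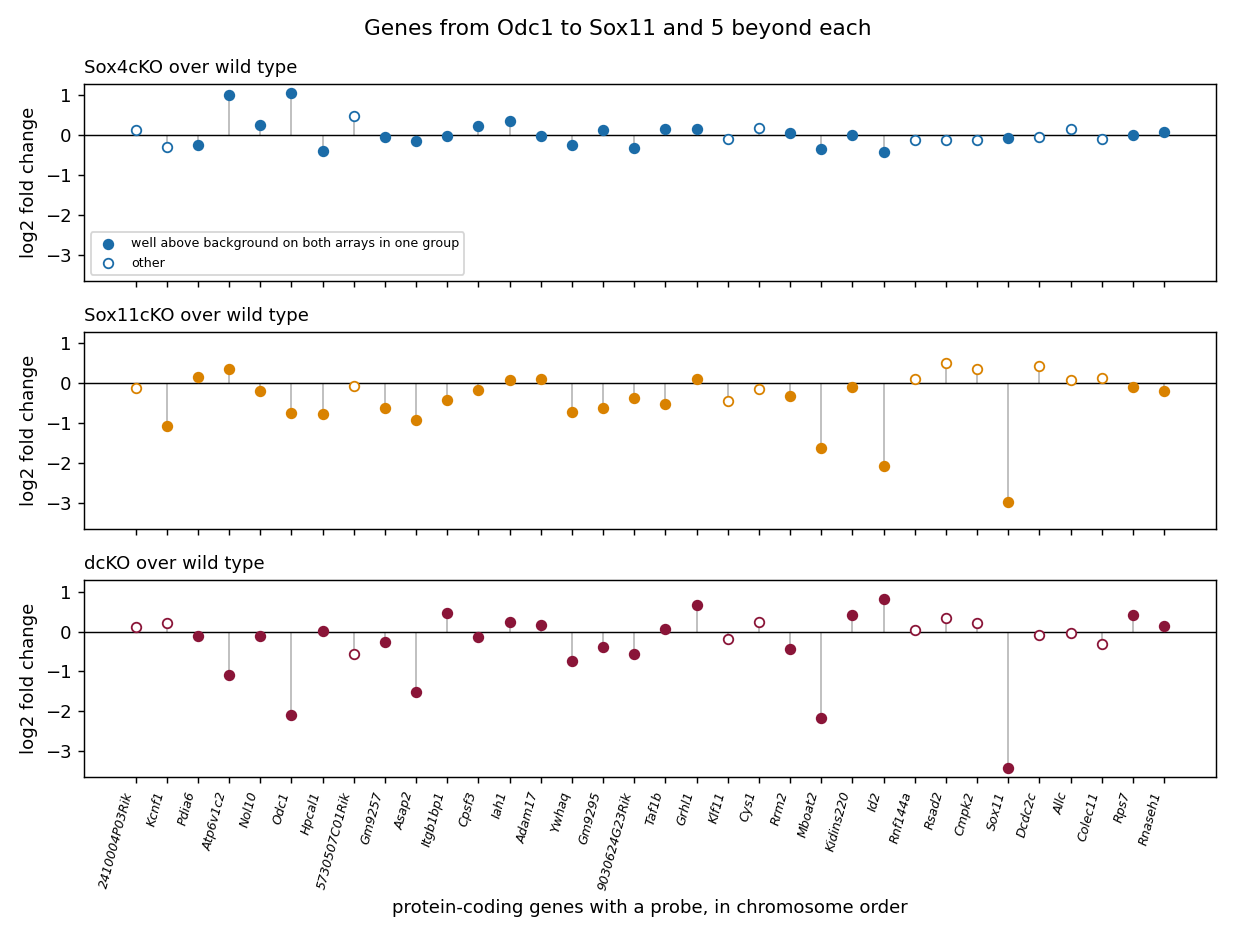
Fitted log2 fold change over wild type (vertical axis) of the genes with a probe from *Odc1* to *Sox11* and 5 beyond each, in chromosome order (horizontal axis, not to scale), 1 panel per genotype. In dcKO, *Sox11* at -3.43, *Mboat2* at -2.16, *Odc1* at -2.10, *Asap2* at -1.51 and *Atp6v1c2* at -1.08 are the lowest values, and the others lie between -0.73 and 0.82.

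The genes most like *Odc1* were sought over the dye-adjusted log2 ratios of the 6 arrays, among 10148 genes well above background in every channel. Likeness was the root mean square difference from *Odc1*, which had a median of 1.43 over these genes. The 5 closest were *Arid5a* (0.288), an RNA-binding protein, *Il24* (0.362), a cytokine, *Fosl1* (0.390), the AP-1 subunit FRA-1, *Hmgn3* (0.404), a nucleosome-binding protein, and *Kcnn4* (0.430), a potassium channel. *Fosl1*, for example, had log2 ratios of 0.88 and 1.59 in Sox4cKO, -0.58 and 0.14 in Sox11cKO, and -1.91 and -1.53 in dcKO. None of the 5 lies on chromosome 12. Of the other members, *Sms* was closest to *Odc1*, at 0.912, and *Smox* farthest, at 1.69. These values describe the arrays that also chose *Odc1*.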

How the data were processed

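The members and gene lists were chosen with earlier results of these data known. Scanner files deposited by the authors give the linear intensity of each spot in both channels, from Agilent Feature Extraction 11.0.1.1, with marks, per the file headers, for spots well above background, saturated (0 spots) or outlying. A second deposited table gives log2 ratios that, per the study's methods, had been background corrected, normalised by loess and cleared of a colour effect. It was used only as an alternative. All 6 arrays shared 1 slide and 1 scan, which leaves no batch of that kind to test.

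Median signals were background corrected with limma 3.58.1 in R 4.3.3 (normexp, offset 16, as in the study's methods). Of 62976 spots, 3671 control spots were left out, outlier spots were set to missing, each array was normalised by loess, and repeated spots were averaged, giving 55681 probes. Levels of a channel were set between arrays by quantile normalisation of the mean intensities. A model with each genotype and a shared dye term was fitted to all arrays with lmFit and eBayes (2 residual and 5.37 prior degrees of freedom). P-values were Benjamini-Hochberg adjusted over all probes of a comparison, and a call needed an adjusted p below 0.05 and an absolute log2 fold change above 1.5. The dye term equals a block on the replicate number. Deviations of same-numbered arrays from their genotype means correlated at 0.316 (Sox4cKO and Sox11cKO), 0.244 (Sox4cKO and dcKO) and 0.125 (Sox11cKO and dcKO), and such arrays share their dye orientation. The fit was also run on data simulated from its own model, which checks the code and not the assumptions of the fit.

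Of 29786 probes with a RefSeq accession, 28331 were named, for 21368 genes, from a table of assembly GRCm38.p6. The array was designed on mm9, so no probe coordinates are given, and that table served for names and gene order. A gene is given by its brightest probe. From each further list the text names genes passing in a single knockout and at most 3 with the largest dcKO values among probes well above background. Probe sequences were not used here, so binding of near-identical transcripts was not checked. Alternatives were another offset, the processed signals, median centring, no dye term, dye removal first, the authors' table, a filter on dim probes, the mean over probes and leaving out each array.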

Additional observations from a re-analysis of the deposited data

Results flagged for a closer look

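Some genes lay on opposite sides of wild type on both arrays of a pair of genotypes. For *Odc1*, Sox11cKO minus Sox4cKO was -1.80 on the log2 scale, and this difference was tested and did not pass (limma adjusted p = 0.0711). The difference of dcKO minus Sox4cKO was -3.16 for *Odc1* and -1.44 for *Sms*, and dcKO minus Sox11cKO was -0.90 for *Sms*, -0.66 for *Srm* and 1.32 for *Sat1*. For *Sms* the second Sox11cKO array was at 0.00. The differences that involve dcKO were not tested, because that genotype served to choose the genes.

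Among the wild-type levels of the 9 measured members, a single value lay far from the other 5 of its gene, the wild-type channel of Sox4cKO replicate 2 for *Paox*, at a log2 intensity of 11.5. Chance sets apart about 1 in 20 such groups.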

How the results depend on the processing

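Precision was limited by the number of arrays, 2 for each genotype. The brightest probes of the 9 measured members were well above background in all 12 channels. *Odc1* kept its direction in each genotype under all alternatives. In dcKO its log2 fold change was -2.60 with median centring and -1.76 with the mean over probes, which also moved its distance from the median of the other members to -1.61. Median centring moved the median of those 8 members in dcKO from -0.20 to -0.73 and that of all named genes from -0.01 to -0.09. With processed signals 0 members lay past both thresholds in dcKO, a count given only as a description, and 0 of all 55681 probes were called in any comparison. Over the 8 processing alternatives, limma's adjusted p of *Odc1* ran from 0.0223 to 0.645 in Sox4cKO. For the difference between the single knockouts it ran from 0.0282 to 0.753. In Sox4cKO it was 0.212 with the offset of 50 and 0.645 with processed signals. It was below the threshold in Sox4cKO with dye removal first (1.06, adjusted p = 0.0274) and with the authors' table (1.06, adjusted p = 0.0223). Both values were still short of the fold threshold. That table also called 1 member between Sox11cKO and Sox4cKO, *Odc1* at -1.80 (adjusted p = 0.0282). In both settings a dye effect had been removed before the fit. With dye removal first, the fit held no dye term and so did not count that step. Over all 55681 probes in Sox4cKO, limma's unadjusted p was below 0.05 for 8816 with dye removal first. It was so for 6145 with the authors' table and for 4121 in the main fit. The lower p-values of these 2 settings are therefore not read as added evidence. Other causes were not tested. Without the dye term, which is the fit with no replicate block, the log2 fold changes of *Odc1* were the same and its adjusted p-values were 0.208 in Sox4cKO, 0.580 in Sox11cKO and 0.297 for their difference, and no call changed.

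Leaving out each array in turn left 1 array in a genotype, so effect sizes are given without p-values or counts of calls. *Odc1* ranged from 1.04 to 1.08 in Sox4cKO and from -1.89 to -1.72 for the difference of Sox11cKO and Sox4cKO. The sign changed in some members near 0. In Sox4cKO these ranged from -0.28 to 0.59 for *Oaz2*, -0.034 to 0.33 for *Srm*, -0.036 to 0.31 for *Sat1* and -0.47 to 0.12 for *Paox*. In Sox11cKO they ranged from -0.34 to 0.50 for *Oaz1*, -0.76 to 0.58 for *Azin1* and -0.16 to 0.29 for *Sms*. For the difference of Sox11cKO and Sox4cKO the ranges were -0.13 to 0.72 for *Oaz1*, -0.34 to 0.53 for *Oaz2*, -0.067 to 0.29 for *Srm*, -0.082 to 2.04 for *Smox* and -0.37 to 0.22 for *Paox*. That difference also turned to -0.045 for *Srm* with processed signals and to -0.14 for *Oaz2* with the mean over probes.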
